A study of Homo sapiens with 6 samples.

Results

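FBXL17 and EFNA5 are neighbouring long genes on chromosome 5, both read from the minus strand, so that each gene starts at its higher coordinate. On the hg19 build FBXL17 was taken as chromosome 5 from 107194 to 107718 kb (524 kb) and EFNA5 as 106712 to 107007 kb (295 kb), each with 20 kb added on both sides. Of 84817 listed peaks in all, 403 had 1 bp or more in these windows, 258 at FBXL17 and 145 at EFNA5. The genes were chosen by their dense listed Pol II peaks in DMSO, so peak numbers, positions, widths and scores in the windows describe them and test nothing. Gene boundaries are known to the kb, and distances below run from the start into the gene, with negative values upstream.

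The peaks come from chromatin immunoprecipitation with sequencing in LNCaP, an androgen-responsive line from a prostate cancer metastasis, exposed for 6 h to 1 µM BMH-21 or to its solvent DMSO. BMH-21 is a DNA intercalator that blocks RNA polymerase I (Pol I). The antibodies recognised Pol I or the form of RNA polymerase II with phosphate on serine 5 of its C-terminal domain, called Pol II below. Each of the groups BMH-21 Pol I, BMH-21 Pol II, DMSO Pol I and DMSO Pol II had 1 library with a peak list, while 2 input libraries were not used here. Differences between treatments thus come without replicates and without a test, and intervals are exact Clopper-Pearson 95% intervals for counting error over peaks alone. Read depth is unknown, because the lists hold peaks and no read counts.

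FBXL17 encodes an F-box protein with leucine-rich repeats, the substrate-recognising subunit of an SCF ubiquitin ligase that removes wrongly paired BTB-domain proteins. EFNA5 encodes ephrin-A5, a ligand anchored to the cell surface that binds Eph receptor tyrosine kinases and guides cells and axons by contact. Pol II transcribes both. Its serine 5 phosphorylation is placed early in transcription and is usually strongest close to gene starts, while Pol I transcribes the ribosomal RNA precursor in the nucleolus.

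Over the whole genome the Pol I lists held 1932 peaks after BMH-21 and 42547 in DMSO, and the Pol II lists 11540 after BMH-21 and 28798 in DMSO. Each peak carries a running number, which rose along the position on all 24 chromosomes of every list, and each list skips numbers. The highest Pol I numbers were 15755 in BMH-21 and 55470 in DMSO, of which 12.3% and 76.7% are listed, and the highest Pol II numbers were 50244 in BMH-21 and 55439 in DMSO, of which 23% and 51.9% are listed. A skipped number is read here as a peak that was numbered but is not listed, with its width, score and exact position unknown. Numbers in a region are counted from its first to its last listed peak unless a range is given, which makes them the fewest it can hold. BMH-21 and DMSO lists of the same antibody share no position anywhere (0 of 11540 BMH-21 Pol II peaks, percentage 0, overlapped a DMSO Pol II peak), so side-by-side listed peaks of these treatments exclude each other over the whole genome, here as elsewhere. Whether peaks found in both treatments were left out of the lists is not stated. If they were, every listed count, run, covered length and ratio given here is one of unshared peaks alone, and a stretch without listed peaks in a treatment may hold peaks shared with the other. The window edges cut through no cluster of listed peaks. Next to the upstream edge of FBXL17 the last peaks inside were 9.9 kb from it in BMH-21 Pol II (score 78.71) and 7.5 kb in DMSO Pol II (84.05), and the first outside were 933.8 kb (53.08) and 294.6 kb (58.99) beyond it. The closest outside peak of any list was a DMSO Pol I peak 20.6 kb beyond the upstream edge of EFNA5 (50.38).

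The starts of the genes lie in GC-rich sequence. The 250 bases before each start, as RefSeq gives them on GRCh38.p14 (FBXL17 at chr5:108382099-108382348, EFNA5 at chr5:107670938-107671187, both minus strand), are shown, as was planned for both genes. A DMSO Pol I peak lay on or beside each start while no listed Pol II peak did, and a link to the sequence was not tested. Capitals mark the GC box GGGCGG or its reverse complement CCGCCC.
FBXL17: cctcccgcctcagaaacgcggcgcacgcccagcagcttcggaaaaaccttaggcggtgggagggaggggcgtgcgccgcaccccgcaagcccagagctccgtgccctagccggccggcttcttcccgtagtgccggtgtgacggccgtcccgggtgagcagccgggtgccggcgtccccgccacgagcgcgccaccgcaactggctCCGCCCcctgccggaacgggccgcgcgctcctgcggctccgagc
EFNA5: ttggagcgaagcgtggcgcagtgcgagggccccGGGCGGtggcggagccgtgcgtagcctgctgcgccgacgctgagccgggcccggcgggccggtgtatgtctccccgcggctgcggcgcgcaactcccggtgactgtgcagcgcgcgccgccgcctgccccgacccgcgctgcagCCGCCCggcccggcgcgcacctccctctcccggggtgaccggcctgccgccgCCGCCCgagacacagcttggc
The GC share was 75.2% at FBXL17 and 79.6% at EFNA5, against a median of 58% over 35116 promoters, of which 10.1% and 3.74% were as GC-rich. CG pairs numbered 35 and 41, against a median of 11. The GC box had 1 match at FBXL17, 44 bases before the start, and 3 at EFNA5, 217, 73 and 21 bases before it. On either strand 42.6% of promoters hold it. TATAAA (in 10.7% of promoters), CCAAT (32.0%), CACGTG (6.34%) and TGACGTCA (1.65%) had 0 matches in either window, which says only that these letters are not there.

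The FBXL17 start was covered by 1 of the strongest DMSO Pol I peaks of the genome. This peak ran from 107716574 to 107718589, was 2016 bp wide with a score of 809.87, and ranked 31 by score and 39 by width among 42547. Further DMSO Pol I peaks were centred 2.6 and 5.7 kb upstream at lower scores, 88.84 and 67.38. These scores were deposited by the authors with each peak, on a scale that is not stated, and rank peaks within a list only. No BMH-21 Pol I peak was listed at this start. The nearest was 11.2 kb into the gene, 191 bp wide with a score of 57.97. For Pol II the closest listed peaks were 9.7 kb upstream in BMH-21 (score 78.71) and 8.0 kb upstream in DMSO (score 55.40), and the stretches across the start skipped 6 numbers in BMH-21 and 2 in DMSO. Pol II peaks that are not listed may therefore lie at the FBXL17 start in both treatments.

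At the EFNA5 start, BMH-21 Pol I had a peak 1.5 kb into the gene, 208 bp wide with a score of 74.20, and DMSO Pol I had 1 at 0.6 kb upstream, from 107007639 to 107008583, 945 bp wide with a score of 202.64. The closest listed Pol II peaks were 3.2 kb into the gene in BMH-21 (593 bp, score 102.13) and 9.0 kb into it in DMSO (850 bp, score 118.49). The stretch across this start skipped 9 numbers over 202 kb in BMH-21 Pol II and 8 over 199 kb in DMSO Pol II, so their distance from the start is not known.

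**Figure D1:**
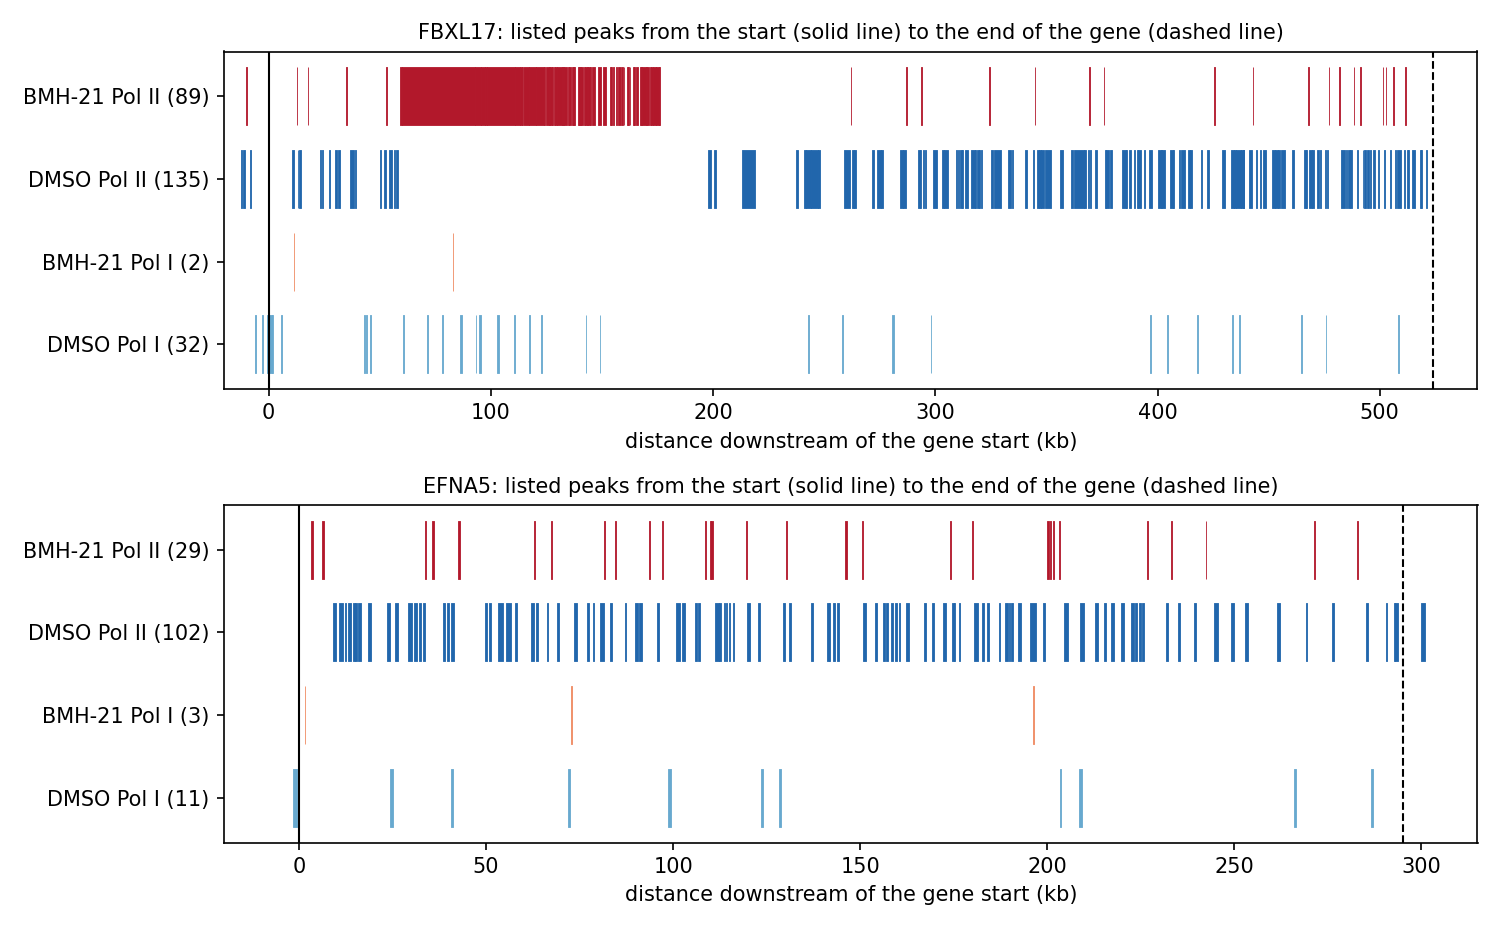
Listed peaks of the 4 lists (rows, with the number of peaks in brackets) along FBXL17 (above) and EFNA5 (below), by distance from the gene start in kb, each bar drawn to the width of its peak. BMH-21 Pol II peaks of FBXL17 crowd between 53.0 and 176.2 kb, where few DMSO Pol II peaks are listed, while EFNA5 carries spread peaks in both treatments.

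FBXL17 held dense listed Pol II peaks in both treatments, but in different stretches of the gene. BMH-21 had 89 peaks covering 107 kb (18.9% of the window), and DMSO had 135 peaks covering 137 kb (24.2%). The BMH-21 peaks were centred 149 kb from the start at the median (quartiles 128 and 173 kb), the DMSO peaks 372 kb (quartiles 289 and 453 kb). Between 50 and 150 kb the gene held 41 BMH-21 peaks and 5 DMSO peaks, and between 250 and 500 kb it held 14 BMH-21 peaks and 98 DMSO peaks. Listed peaks at least 1 kb wide numbered 18 of 89 in BMH-21 (20.2%, 4.79% in the whole list) and 51 of 135 in DMSO (37.8%, 7.71% in the whole list).

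After BMH-21, FBXL17 carried a nearly continuous block of Pol II. With a run taken as peaks separated by at most 10 kb, 67 of the 89 peaks formed a run from 107541786 to 107664967, 53.0 to 176.2 kb from the start, 123 kb long and 80.8% under peaks. It held 93.3% of the length that BMH-21 Pol II peaks covered in the window. Its numbering skipped 0 of 67 numbers, whereas 23% of the numbers of the whole list are listed. Between neighbouring peaks of the run, 53 of 66 gaps (80.3%) were under 500 bp, against 13.9% in the whole list, with a median gap of 104 bp.

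The block was widest and highest scored towards the start of the gene. Its widest peak, from 107625397 to 107657894, was 32498 bp wide with a score of 2225.08, and ranked 2 by width and 30 by score among 11540. The highest score, 3100, belonged to the peak from 107607101 to 107619826, 12726 bp wide. As 14 BMH-21 Pol II peaks share exactly this value and 1 exceeds it, 3100 may be a ceiling of the score, and it does not order these peaks among each other. These are 2 of the 18 BMH-21 Pol II peaks over 10 kb in the whole list, and DMSO Pol II has 0. The third by score, from 107597827 to 107600927, had 1624.53. The share of each 10 kb tile under peaks was 97.35% to 100% from 60 to 120 kb, then 86.5%, 73.7% and 69.35% in the tiles from 120 to 150 kb and 49.3% to 55.1% from 150 to 180 kb. In the next tile it was 0. The edge towards the start was sharper, with 14.7% in the tile from 50 to 60 kb before the 99.9% that followed.

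**Figure D2:**
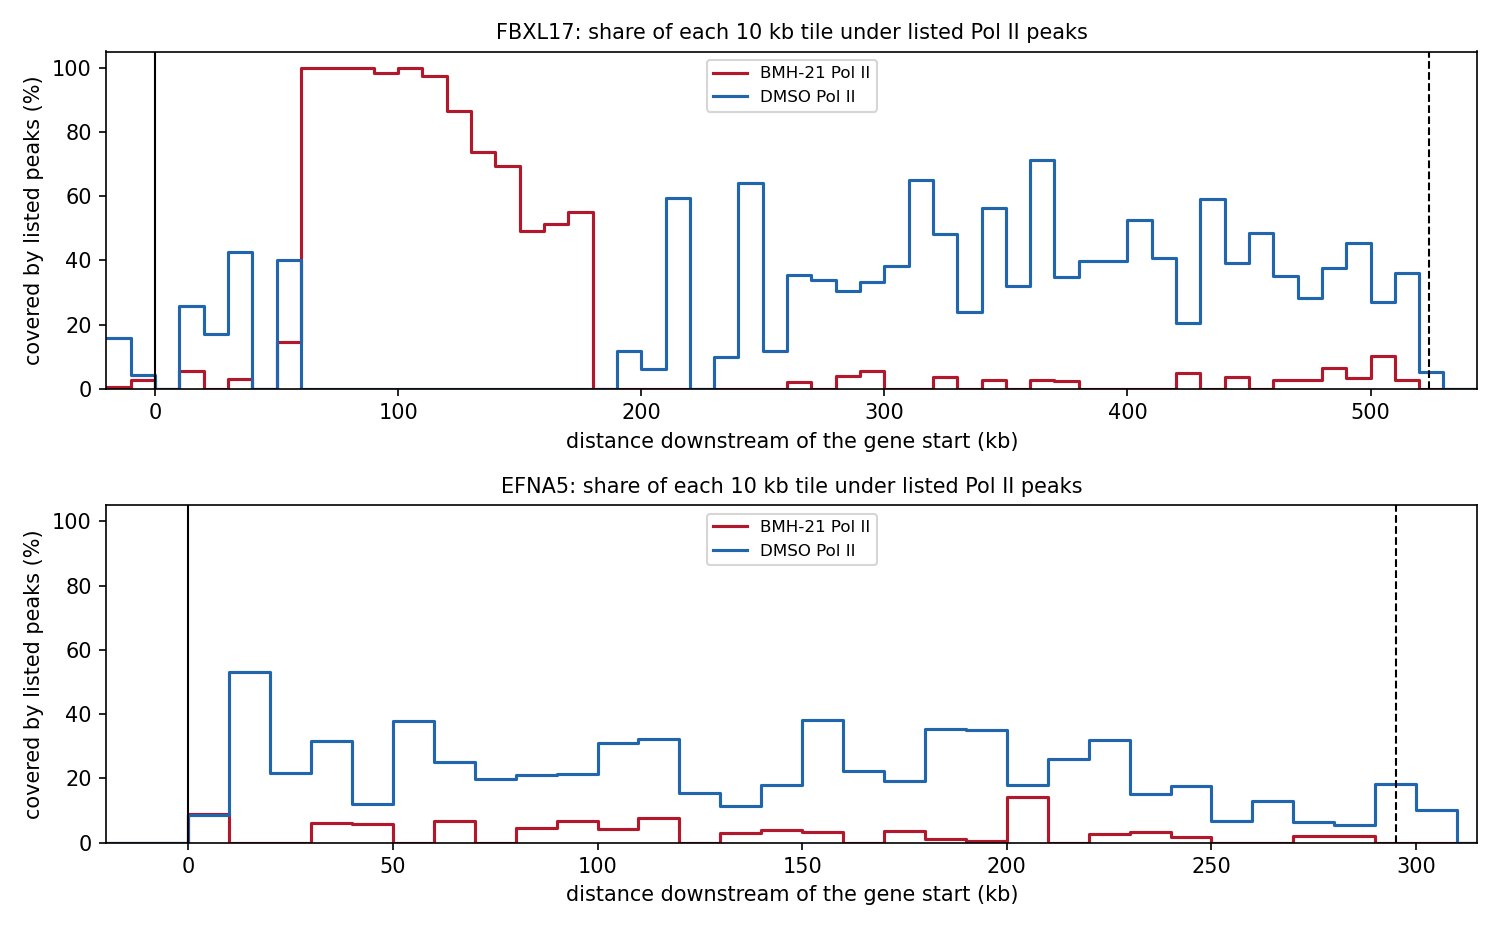
Share of each 10 kb tile (percent) under listed Pol II peaks of BMH-21 (red) and DMSO (blue) along FBXL17 (above) and EFNA5 (below), by distance from the gene start in kb. In FBXL17 the BMH-21 line stands at 97.35% to 100% from 60 to 120 kb and steps down to 49.3% to 55.1% before 180 kb, and the DMSO line is highest beyond 200 kb. In EFNA5 the BMH-21 line stays at or below 14.3%.

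The 22 BMH-21 Pol II peaks of FBXL17 outside the block were narrow, from 201 to 546 bp with a median of 298 bp, and scored 50.98 to 163.21 with a median of 56.9. Inside the block the median width was 561 bp and the median score 141.95. On the side of the gene end, 18 peaks were listed of 68 to 118 numbers, a share of 15.3% to 26.5% (interval 16.5 to 38.6 at 68 numbers), against 23% in the whole list. In the block all 67 were listed.

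DMSO Pol II left the stretch of the block almost free of listed peaks. Inside the block's bounds 3 DMSO peaks were listed, 54.1 to 58.2 kb from the start with scores of 125.19, 67.94 and 232.46, all between the narrow BMH-21 peak nearest the start and the main body of the run. From 58.2 to 197.9 kb the DMSO list had no peak over 139.6 kb and skipped 9 numbers, while 66 BMH-21 peaks were listed there. As listed DMSO peaks cannot overlap BMH-21 peaks, the 9 skipped numbers bound how many DMSO peaks were numbered in that stretch. Their widths are not known, so the length that DMSO Pol II covered there was not measured.

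Beyond the block, towards the end of FBXL17, the DMSO list carried a run of 109 peaks from 107196553 to 107459173, 258.8 to 521.4 kb from the start. It spanned 263 kb, was 40.7% under peaks, ranked 2 by number of peaks among 260 DMSO Pol II runs, and skipped 48 of 157 numbers. Of its 108 gaps 44 (40.7%) were under 500 bp, against 13.7% in the whole list. The strongest and widest DMSO Pol II peak of the gene lay between this run and the block, from 107499023 to 107504972. At 5950 bp it was the widest of all 28798 DMSO Pol II peaks, and its score of 895.28 ranked 27. Next by score came a peak of 4553 bp from 107351048 to 107355600 (699.04) and 1 of 2609 bp from 107366009 to 107368617 (551.10). A second run of 10 peaks lay 10.3 to 39.4 kb from the start.

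The BMH-21 list was sparse over that same end side, where it had more numbers than listed peaks but fewer numbers than DMSO. From 176.2 to 544 kb, BMH-21 had 18 listed peaks among 68 to 118 numbers and DMSO 117 listed peaks among 188 to 205 numbers, the ranges being what the listed peaks inside and around the stretch allow. The longest stretch free of listed BMH-21 peaks, 85.8 kb from 176.2 to 262.0 kb from the start, skipped 41 numbers and contained 9 listed DMSO peaks. Peaks were thus numbered there after BMH-21 without being listed, and an empty stretch of the BMH-21 list is not shown to lack Pol II.

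EFNA5 had Pol II peaks spread along the gene, thinner at its end, and no block. In 50 kb stretches up to 250 kb from the start, DMSO peaks covered 21.6% to 30.0% and BMH-21 peaks 1.71% to 4.42%. From 250 to 295 kb these shares were 10.5% and 0.911%. BMH-21 had 29 peaks covering 9.24 kb (2.76% of the window) and DMSO 102 peaks covering 67.8 kb (20.3%). The 102 DMSO peaks formed 1 run from 106705975 to 106998013, from 9.0 to 301.0 kb from the start, which ranked 3 among 260. The longest BMH-21 run had 4 peaks. Median distances from the start were 120 kb in BMH-21 and 142 kb in DMSO, so that neither list leaned to an end of the gene the way both did at FBXL17.

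By medians over all peaks, Pol II peaks of EFNA5 were also narrower and lower scored than those of FBXL17 within each list. In BMH-21 this came largely from the block. The 22 FBXL17 BMH-21 peaks outside it had medians of 298 bp and 56.9, against 288 bp and 60.60 at EFNA5. Median scores were 105.38 at FBXL17 and 60.60 at EFNA5 in BMH-21, and 112.25 and 78.96 in DMSO, and median widths were 474 and 288 bp in BMH-21 and 761 and 618.5 bp in DMSO. Widths ran from 186 to 593 bp in BMH-21 EFNA5 peaks and from 338 to 1626 bp in DMSO EFNA5 peaks, so the widths of the treatments overlap. Scores ran from 50.28 to 102.50 in BMH-21 and from 50.01 to 241.95 in DMSO, and are not compared between the lists. At EFNA5, 0 of 29 BMH-21 peaks and 2 of 102 DMSO peaks (1.96%) were in the top 10% of their list by score. At FBXL17 the numbers were 38 of 89 (42.7%) and 28 of 135 (20.7%). The highest-scored DMSO peak of EFNA5, from 106705975 to 106707233 with a score of 241.95, lay past the end of the gene, 299.8 to 301.0 kb from the start. The highest-scored BMH-21 peak, from 106963972 to 106964554 with a score of 102.50, lay 42.4 to 43.0 kb from the start.

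**Figure D3:**
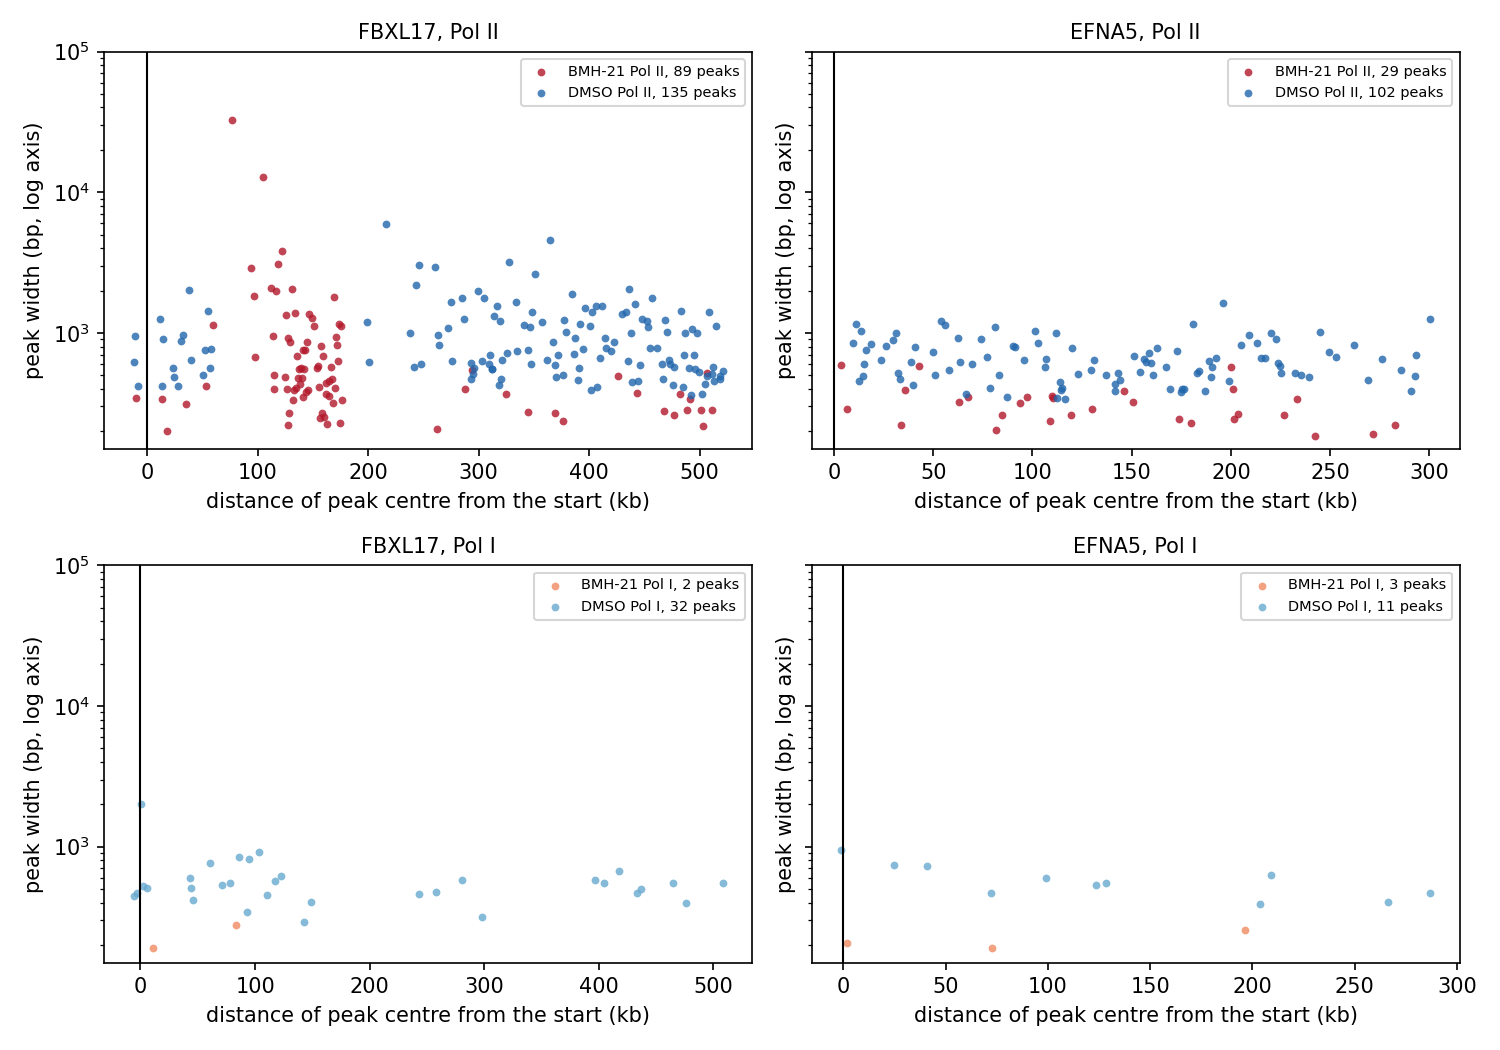
Width of each listed peak (bp, log axis) against the distance of its centre from the gene start (kb), for FBXL17 (left) and EFNA5 (right) and for Pol II (above) and Pol I (below), with BMH-21 in red shades and DMSO in blue. The 2 BMH-21 Pol II peaks over 10 kb sit between 60.1 and 110.9 kb from the FBXL17 start, and no peak of EFNA5 is wider than 1626 bp.

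Set against the genome, both genes were crowded in the Pol II lists of either treatment. The way they were picked implies this for DMSO. As the windows were chosen with earlier results of all lists known, the BMH-21 values are a description too and test nothing. Among genome tiles of 524 kb, 0.0845% held at least the 88 BMH-21 Pol II peaks of the FBXL17 body and 0.0338% at least its 132 DMSO peaks. Among tiles of 295 kb, 0.276% held at least the 29 BMH-21 Pol II peaks of EFNA5 and 0.00952% at least its 101 DMSO peaks. In 10 kb tiles of the FBXL17 window, a listed peak was present in 56.1% for BMH-21 (interval 42.4 to 69.3, genome 2.83%) and 68.4% for DMSO (interval 54.8 to 80.1, genome 6.5%). At EFNA5 these shares were 58.8% (interval 40.7 to 75.4) and 88.2% (interval 72.5 to 96.7).

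The ratio of BMH-21 to DMSO Pol II depended on the gene and on whether listed peaks or numbers were counted. By listed peaks it was 0.659 at FBXL17, 0.284 at EFNA5 and 0.401 in the whole lists. By numbers from the first to the last listed peak of the window, BMH-21 had 193 and DMSO 222 at FBXL17, a ratio of 0.869, and BMH-21 had 62 and DMSO 135 at EFNA5, a ratio of 0.459, against 0.906 for the highest numbers of the whole lists. By covered length it was 0.781 at FBXL17, 0.136 at EFNA5 and 0.296 in the whole lists. The listed peaks around the windows allow more numbers, with ratios of 0.832 to 0.946 at FBXL17 and 0.431 to 0.63 at EFNA5. FBXL17 as a whole was thus above the whole-list ratio by peaks and by length, with no direction by numbers, and EFNA5 was below it by all of these. The FBXL17 direction rested on the block. On its start side BMH-21 had 4 peaks over 1.20 kb and DMSO 15 over 11.8 kb. On its end side BMH-21 had 18 peaks over 5.99 kb and DMSO 117 over 122 kb. Both sides were below the whole-list ratios by peaks and by length. Both genes were picked by dense listed DMSO Pol II peaks, which form the denominator by peaks and by length. A choice by a high denominator favours low ratios, so the ratios describe these genes and test nothing. With 1 library each, whether these ratios differ beyond the spread between replicates was not measurable.

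**Figure D4:**
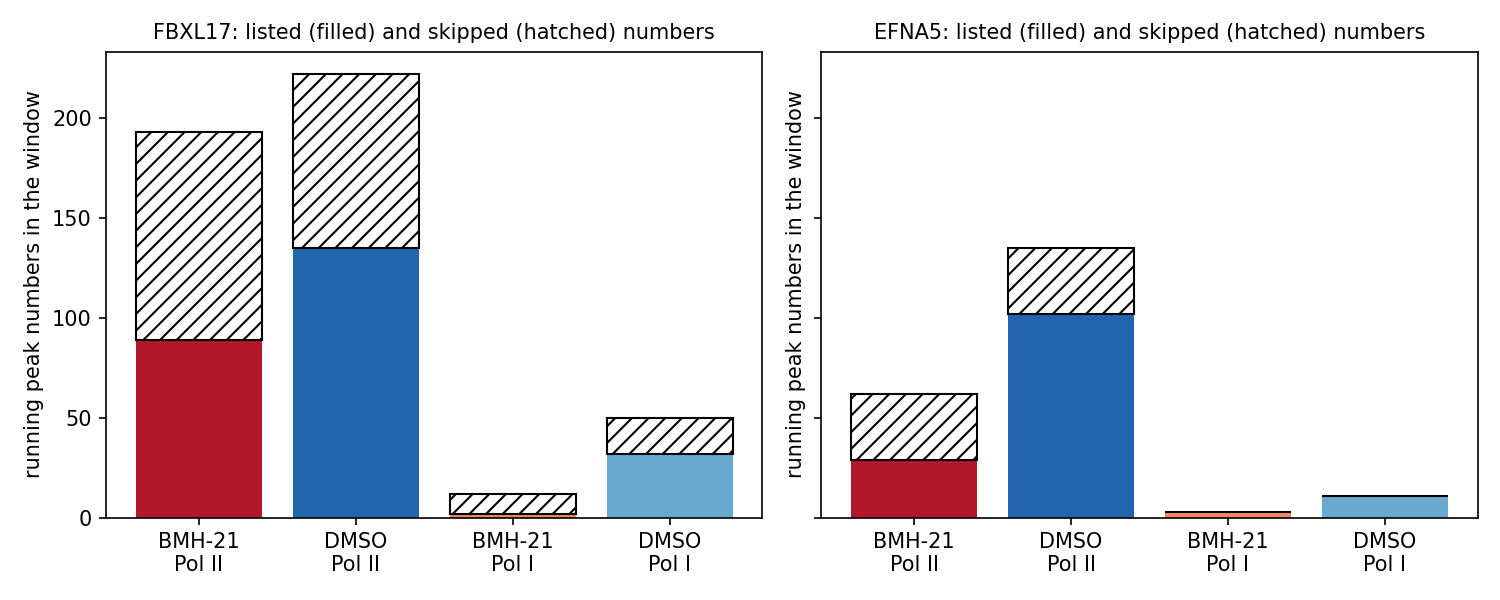
Running peak numbers from the first to the last listed peak of each window, split into listed peaks (filled) and skipped numbers (hatched), for FBXL17 (left) and EFNA5 (right). At FBXL17 the Pol II totals are 193 for BMH-21 and 222 for DMSO, with 89 and 135 listed, and at EFNA5 they are 62 and 135, with 29 and 102 listed.

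Listed shares of the numbers also differed between the lists. At FBXL17, 46.1% of BMH-21 Pol II numbers (interval 38.9 to 53.4) and 60.8% of DMSO Pol II numbers (interval 54.1 to 67.3) were listed, against 23% and 51.9% in the whole lists. At EFNA5 the shares were 46.8% (interval 34.0 to 59.9) and 75.6% (interval 67.4 to 82.5). Skipped numbers came to 104 in BMH-21 and 87 in DMSO at FBXL17 and to 33 in each treatment at EFNA5. Counting all that the surrounding listed peaks allow, up to 121 and 97 were skipped at FBXL17 and up to 56 and 42 at EFNA5, with listed shares down to 42.4% in BMH-21 and 58.2% in DMSO at FBXL17 and 34.1% and 70.8% at EFNA5.

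Pol I was also mapped along both genes, thinly after BMH-21. At FBXL17, BMH-21 had 2 Pol I peaks covering 0.469 kb and DMSO 32 covering 18.7 kb. At EFNA5, BMH-21 had 3 covering 0.655 kb and DMSO 11 covering 6.465 kb. The 2 BMH-21 peaks at FBXL17, scored 59.78 and 57.97, were 83.0 and 11.3 kb from the start with 10 numbers skipped between them, and the 3 at EFNA5, scored 50.61, 53.28 and 74.20, carried consecutive numbers. By listed peaks, the BMH-21 to DMSO ratio was 0.0625 at FBXL17 and 0.273 at EFNA5, against 0.0454 in the whole lists. By covered length it was 0.0251 at FBXL17 and 0.101 at EFNA5, against 0.0321. By numbers from the first to the last listed peak it was 0.24 at FBXL17 (12 and 50) and 0.273 at EFNA5 (3 and 11), against 0.284, but the listed peaks around the windows allow ratios of 0.235 to 0.6 at FBXL17 and 0.25 to 2.73 at EFNA5. The numbers thus give no direction for Pol I, and the ratios by peaks and length rest on 2 and 3 BMH-21 peaks. In 10 kb tiles of FBXL17 a Pol I peak was present in 3.51% for BMH-21 (genome 0.532%) and 43.9% for DMSO (genome 12.3%). As many BMH-21 Pol I peaks as in the gene bodies were held by 5.15% of genome tiles of 524 kb (2 or more) and 1.19% of tiles of 295 kb (3 or more).

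DMSO Pol I peaks of FBXL17 were more numerous up to 150 kb from the start than in the longer stretch beyond, while the higher-scored ones split evenly by count. Of the 32 peaks, 20 were centred upstream or within 150 kb of the start and 12 farther on, none of these between 150 and 240 kb. Of the 12 scored at or above the median of the list, 6 were centred up to 150 kb and 6 beyond. The first stretch runs from -20 to 150 kb and the second, which is longer, to 544 kb, so these peaks were also denser per length in the first. Their median distance was 192 kb, against 114 kb for all 32. Tiles of 524 kb with at least the 30 DMSO Pol I peaks of the gene body made up 0.237% of the genome's tiles. After the peak on the start, the highest scores were 306.43 for the peak from 107299797 to 107300465, 417.5 kb from the start, and 256.43 for the peak from 107622557 to 107623372, 94.6 kb from it. At EFNA5 the highest were 357.25 (24.4 kb from the start), 348.38 (40.5 kb) and 305.40 (208.6 kb), with peaks spread from start to end, and 7.86% of tiles of 295 kb held at least as many as the 10 of its body.

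The DMSO Pol I peaks of FBXL17 that met Pol II peaks met the BMH-21 list in the block and the DMSO list on the end side of the gene. Of 32 peaks, 12 overlapped BMH-21 Pol II peaks (37.5%, interval 21.1 to 56.3, whole list 2.43%) and 6 others overlapped DMSO Pol II peaks (18.8%, interval 7.21 to 36.4, whole list 14%). All 12 were in the BMH-21 block, where 12 of the 12 DMSO Pol I peaks within its bounds were overlapped (interval 73.5 to 100) with 80.8% of the block under peaks. The 6 were all on the end side, 242.8 to 508.3 kb from the start, where 33.2% of the length was under DMSO Pol II peaks and 12 DMSO Pol I peaks were listed. On the start side of the block, 0 of 8 DMSO Pol I peaks overlapped a DMSO Pol II peak, with 16.2% of the length under DMSO Pol II peaks. The other 14 of the 32 overlapped no listed Pol II peak.

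At EFNA5, 1 of 11 DMSO Pol I peaks overlapped BMH-21 Pol II and 2 overlapped DMSO Pol II, those scored 348.38 and 305.40. Of the BMH-21 Pol I peaks, the 1 at 83.0 kb in FBXL17 lay inside the 32498 bp BMH-21 Pol II peak, and none of the 3 at EFNA5 met a BMH-21 Pol II peak (whole list 9.52%). The other peak at FBXL17 and 1 of the 3 at EFNA5 met a DMSO Pol II peak (whole list 3.62%).

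The FBXL17 block was set against the 54 BMH-21 Pol II runs of at least 10 peaks. It ranked 7 by number of peaks, 5 by length and 14 by share under peaks, and was 1 of 27 runs that skipped no number. It held 12 DMSO Pol I peaks, the most of any run (range 0 to 12, median 1), or 9.74 per 100 kb against a median of 2.55, which 5 runs including it reached. A DMSO Pol II run of at least 10 peaks began 13.6 kb from it, and 7 of the 54 runs had a DMSO Pol II run within 20 kb. Within 100 kb, 10 of the 54 had such a neighbour (18.5%), and 12 of 260 DMSO Pol II runs had a BMH-21 Pol II run (4.62%).

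The DMSO Pol II runs elsewhere with the most similar peak densities, by the sum over the 4 lists of differences in peaks per 100 kb, were all shorter. The FBXL17 run of 109 peaks had 6.85 BMH-21 Pol II, 41.5 DMSO Pol II and 3.81 DMSO Pol I peaks per 100 kb. Most like it was a run of 11 peaks on chromosome 19 from 18959515 to 18985656, then 1 of 43 peaks on chromosome 3 from 154806497 to 154911121 and 1 of 11 peaks on chromosome 19 from 23550493 to 23576068. The EFNA5 run had 9.25 BMH-21 Pol II, 34.9 DMSO Pol II and 3.42 DMSO Pol I peaks per 100 kb. Most like it was a run of 21 peaks on chromosome 7 from 151801264 to 151860448, then 1 of 12 peaks on chromosome 19 from 10766091 to 10801061 and 1 of 12 peaks on chromosome 2 from 168813711 to 168846583. The nearest BMH-21 Pol II run was 82.6 kb from the FBXL17 run and at least 5666 kb from each of these 6.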

How the data were processed

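The authors' deposited files were 4 peak lists, 1 per ChIP library, with chromosome, start, end, a numbered peak name and a value per peak. Per the file headers that value is a p-value. It runs from 50 upward on a scale the headers do not state, so it is treated as the authors' score and compared within a list only. The submitters' processing notes name the hg19 build and, per these notes, deepTools 3.5.4, Bowtie2 2.2.1 and CASAVA 1.8.2. Peak names begin with MACS. No source used here gives its version and settings, the use of the inputs, duplicate removal or how listed peaks were chosen. Each library has its own list and numbering, so depth and enrichment may set how many were called, and no adjustment was possible.

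Starts were converted to the first base as a browser shows it. Peaks with 1 bp in a window were counted by the gene limits given with the members, with 20 kb flanks, tiles of 10 kb and runs with gaps of at most 10 kb. Genome tiles began at the first base of each chromosome and ended with its last listed peak. Named peaks were, per gene and list, the 3 with the highest score, the widest and the one closest to the start, and not every one of them is described. Counting steps were checked on simulated data. RefSeq gene positions were on GRCh38 and were used only for neighbours and promoter sequence, of which the 250 bases before the start were searched. The members, windows and lists were chosen with earlier results of these data known, and the split of FBXL17 at its BMH-21 run was chosen after its values were seen. Python 3.11.15, NumPy 2.4.6, pandas 2.3.3, SciPy 1.17.1 and matplotlib 3.10.9 were used.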

Additional observations from a re-analysis of the deposited data

How the results depend on the processing

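With 72 results recomputed, 176 of 231 alternative values lay within 1.5 times the reported value or, for shares, within its 95% interval, and 55 lay outside. Leaving out the flanks or widening them to 50 kb moved 0 of 80 values, and asking for 50% overlap moved 0 of 8. Keeping scores at or above the median of each list left 0 (FBXL17) and 1 (EFNA5) BMH-21 Pol I peaks, 12 (FBXL17) and 7 (EFNA5) DMSO Pol I peaks, and 15 BMH-21 and 49 DMSO Pol II peaks at EFNA5. The share of the window covered became 0% (BMH-21 Pol I) and 1.66% (DMSO Pol I) at FBXL17, and 0.0621% (BMH-21 Pol I), 1.67% (BMH-21 Pol II) and 12.1% (DMSO Pol II) at EFNA5. The share of tiles with a peak became 0% (BMH-21 Pol I), 17.5% (DMSO Pol I) and 36.8% (BMH-21 Pol II) at FBXL17 and 32.4% (BMH-21 Pol II) at EFNA5. The median distance from the start became 192 kb for DMSO Pol I at FBXL17, and 1.59 kb (BMH-21) and 72.2 kb (DMSO) for Pol I at EFNA5, where 100% of BMH-21 Pol I peaks were then near the start. Overlap of BMH-21 Pol II with Pol I at FBXL17 became 0% there and at a width of at least 300 bp. That width left 0 BMH-21 Pol I peaks, 0% of tiles and 0% of length at either gene, and 14 BMH-21 Pol II peaks at EFNA5 over 1.68% of the window and 29.4% of tiles. Tiles of 5 kb gave 26.5% (FBXL17) and 17.9% (EFNA5) for DMSO Pol I and 38.8% for BMH-21 Pol II at EFNA5, and tiles of 20 kb gave 62.1% for DMSO Pol I at FBXL17 and 88.2% for BMH-21 Pol II at EFNA5. With gaps up to 5 kb the longest run had 35 (FBXL17) and 30 (EFNA5) DMSO Pol II peaks and 5 DMSO Pol I peaks at FBXL17, and with gaps up to 20 kb 15 DMSO Pol I peaks at FBXL17 and 16 BMH-21 Pol II peaks at EFNA5. Counting the first 100 kb as near the start gave 100% (BMH-21 Pol I), 43.8% (DMSO Pol I) and 11.2% (BMH-21 Pol II) at FBXL17 and 37.9% (BMH-21 Pol II) and 34.3% (DMSO Pol II) at EFNA5. Peaks within 1000 bp of the other antibody made 11.1% of DMSO Pol II at FBXL17, and 63.6% of DMSO Pol I and 8.82% of DMSO Pol II at EFNA5. On chromosome 5 alone, tiles with as many peaks made 9.83% (BMH-21 Pol I), 0% (DMSO Pol I), 0.578% (BMH-21 Pol II) and 0.289% (DMSO Pol II) for FBXL17, and 2.93% (BMH-21 Pol I), 1.63% (BMH-21 Pol II) and 0% (DMSO Pol II) for EFNA5. Score and width limits leave fewer peaks, tiles and length by construction. By construction too, the wider near-start limit and the 1000 bp rule can only raise shares. Smaller gaps can only shorten the longest run, and larger gaps can only lengthen it. The cause of the remaining moves was not tested. No paired analysis was possible because each group has 1 library, and leaving out a replicate was not possible for the same reason.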

Other observations

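The ground between the genes was nearly free of listed peaks. From 107027 to 107174 kb, between the windows, the lists held 0 BMH-21 and 0 DMSO Pol II peaks, and 0 BMH-21 and 1 DMSO Pol I peaks (score 50.38). The listed peaks around it allow at most 9 numbers in BMH-21 Pol II and 8 in DMSO Pol II. In the order of RefSeq on GRCh38.p14, 5 genes come after EFNA5 and before FBXL17, which are 2 long noncoding RNA genes and 3 pseudogenes. Whether each lies between the genes or inside EFNA5 was not resolved.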
